A study of Mus musculus with 2 samples.

Results

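Mir7-1, Mir7-2, Mir7b and Mir671 are the mouse genes that make miR-7 and miR-671, the microRNAs (miRNAs) of the Cdr1as circuit. They were found by their Ensembl identifiers in the GENCODE M21 annotation and were 4 of the 2202 miRNA genes counted. Small RNA from total RNA was sequenced from hippocampal tissue of B6CASTF1/J males at an age of 14 days. These animals are hybrids of the inbred strains C57BL/6J and CAST/EiJ, and the labels name the tissue as a layer of hippocampus. There was 1 group of 2 libraries, marked as biological replicates, with no treatment named and no control group, so levels could be described but no conditions could be compared. Each label names 3 males by different numbers, yet both libraries carry the same donor identifier and pooling is not stated. Any spread between the libraries may therefore be partly technical.

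A miRNA guides an Argonaute protein to RNAs that pair with its seed, bases 2 to 8 from the 5′ end, and usually lowers the output of those RNAs. Cdr1as is a circular RNA of neurons that carries many matches to the seed of miR-7, a miRNA enriched in neuroendocrine and neuronal cells. miR-671 pairs with Cdr1as along most of its length, which leads to slicing of the circle. The long noncoding RNA Cyrano holds a site with extensive pairing to miR-7 that triggers the decay of miR-7, and both RNAs are known from studies of the mouse brain to alter how much miR-7 is present. Mir7-1, Mir7-2 and Mir7b are the sources of miR-7 in the mouse, and Mir671 is the only annotated source of miR-671.

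The mature sequences are printed because they decide which RNAs a miRNA can pair with and which reads can be assigned to 1 gene. All 4 genes matched RefSeq entries of build GRCm38.p6, and the seed is in capitals.
miR-7a-5p: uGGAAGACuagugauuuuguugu
miR-7b-5p: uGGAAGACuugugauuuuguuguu
miR-671-5p: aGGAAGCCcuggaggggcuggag
miR-671-3p: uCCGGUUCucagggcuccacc
miR-7a-1-3p: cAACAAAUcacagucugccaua
miR-7a-2-3p: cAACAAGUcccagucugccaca
miR-7b-3p: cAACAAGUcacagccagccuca

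miR-7a-5p is encoded on chromosome 13 by Mir7-1 (chr13:58392841-58392863, minus strand) and on chromosome 7 by Mir7-2 (chr7:78888295-78888317, plus strand), in the same letters. miR-7b-5p comes from Mir7b on chromosome 17 (chr17:56243017-56243040, plus strand). Counted from 1 at the 5′ end, it differs from miR-7a-5p over 23 bases by A10U alone and carries 1 further U at its 3′ end. The position lies outside the seed, so all 3 genes give the seed GGAAGAC, and of 1679 mature mouse names in the table miR-7a-5p and miR-7b-5p were the 2 that hold it.

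The arms miR-671-5p (chr5:24592132-24592154, plus strand) and miR-671-3p (chr5:24592171-24592191) come from Mir671 on chromosome 5. Each of their seeds, GGAAGCC and CCGGUUC, was held by 1 mature name. In its first 8 bases, miR-671-5p differs from miR-7a-5p by U1A and A7C. GC content was 69.6% in miR-671-5p and 66.7% in miR-671-3p, against 34.8% in miR-7a-5p and 33.3% in miR-7b-5p.

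The 3′ arms of the miR-7 genes differ from each other. From miR-7a-1-3p to miR-7a-2-3p the substitutions were A7G, A10C and U21C, the first of them in the seed. From miR-7a-2-3p to miR-7b-3p they were C10A, U14C, U16A and A20U, all outside it, so miR-7a-2-3p and miR-7b-3p share the seed AACAAGU and miR-7a-1-3p has the seed AACAAAU alone.

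The hairpins of Mir7-1 and Mir7-2 show how far the pair is identical, with their longest shared stretch in capitals.
Mir7-1: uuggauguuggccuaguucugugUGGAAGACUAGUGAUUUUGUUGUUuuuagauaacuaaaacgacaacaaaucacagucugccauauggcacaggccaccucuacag
Mir7-2: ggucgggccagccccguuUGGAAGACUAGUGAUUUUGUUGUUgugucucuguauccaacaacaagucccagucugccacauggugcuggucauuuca

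The shared stretch is 24 nucleotides long and holds all of miR-7a-5p. With Mir7b, either hairpin shares at most 14 nucleotides, GUGAUUUUGUUGUU. A read that lies wholly inside the 24 nucleotides maps to both genes, and the deposited tables keep reads that map to several places in a row of their own. Such reads, which include full-length miR-7a-5p, are thus left out of the counts of Mir7-1 and Mir7-2. These counts are therefore uncertain as measures of miR-7a-5p, and how many reads were left out was not tested. Mir7b and Mir671 share no stretch of 20 nucleotides with another miRNA gene. The tables do not separate the 5′ and 3′ arms of any gene.

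The genes sit in different surroundings (mm10 with GENCODE M21). Mir7-1 (ENSMUSG00000065434.1, chr13:58392779-58392886, minus strand, 108 nucleotides) lies in an intron of Hnrnpk, which encodes an abundant RNA-binding protein, on the same strand and in 12 of 12 transcripts that span it. Mir671 (ENSMUSG00000076387.1, chr5:24592114-24592211, plus strand, 98 nucleotides) lies inside a coding exon of Chpf2, a chondroitin synthesis gene, in 2 of 2 transcripts. It also lies opposite an exon of Smarcd3, which encodes a subunit of the BAF chromatin remodelling complex. Mir7-2 (ENSMUSG00000065609.1, chr7:78888277-78888373, plus strand, 97 nucleotides) is intergenic, 7481 bp from Aen. Mir7b (ENSMUSG00000065491.1, chr17:56242988-56243098, plus strand, 111 nucleotides) is intergenic, 13712 bp from Fem1a.

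The libraries held 3793934 counts on miRNA genes in replicate 1 and 2554997 in replicate 2. Levels are given as counts per 1000000 of these (CPM), so that 1 count was worth 0.264 and 0.391 CPM. Of all reads, 26.3% in replicate 1 and 37.5% in replicate 2 mapped to several places, and 41.3% and 20.7% were unmapped. The threshold of detection, at least 2 CPM in both libraries, was reached by 426 of 2202 genes. The 4 members were all among them and together took 0.306% of the counts in replicate 1 and 0.411% in replicate 2.

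Mir7b had the highest level of the 4 genes. Its counts were 6468 in replicate 1 and 4978 in replicate 2, or 1705 CPM (95% exact Poisson interval 1664 to 1747) and 1948 CPM (1895 to 2003). The mean was 1827 ± 172 CPM (SD, n = 2), which ranked 82 among the 2202 genes, above 80.8% of the detected ones. Reads that map to several places entered no rank here or below, so the ranks hold for assigned counts and not for mature miRNAs. The intervals here and below cover counting error only, since reads amplified without molecular identifiers are not independent molecules.

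Mir671 followed. It had 4066 and 4258 counts, which gave 1072 CPM (1039 to 1105) in replicate 1 and 1667 CPM (1617 to 1717) in replicate 2. Its mean of 1369 ± 421 CPM (SD, n = 2) ranked 96, above 77.5% of the detected genes. The ranges of Mir671 and Mir7b did not overlap, but the higher value of Mir671 lay just below the lower value of Mir7b, and the difference of their means was about as large as the SD of Mir671.

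By assigned counts, Mir7-2 lay well below both. With 894 and 1088 counts it stood at 236 CPM (220 to 252) and 426 CPM (401 to 452), a mean of 331 ± 134 CPM (SD, n = 2) and rank 155, above 63.6% of the detected genes. Mir7-1 was lowest in each library, with 176 and 168 counts. These gave 46.4 CPM (39.8 to 53.8) and 65.8 CPM (56.2 to 76.5), a mean of 56.1 ± 13.7 CPM (SD, n = 2) and rank 235, above 44.8% of the detected genes. No value of Mir7-1 reached the lower value of Mir7-2, and none of Mir7-2 reached that of Mir671.

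The order Mir7b, Mir671, Mir7-2, Mir7-1 was the same in both libraries and when levels were divided by hairpin length. The hairpins are 97 to 111 nucleotides long and differ too little to reorder these levels, so that division was no test of the order. The length-scaled levels were 1646 CPM per 100 nucleotides for Mir7b, 1397 for Mir671, 341 for Mir7-2 and 51.9 for Mir7-1. On the strand opposite to each gene, all 4 had 0 counts in both libraries. For Mir671 this means that no counted read came from the strand of Smarcd3, with 3 counts of the total, 0.791 CPM in replicate 1 and 1.17 CPM in replicate 2, as the limit that a count of 0 allows. Reads of Mir671 cannot be told apart from small fragments of the Chpf2 exon, since both lie on the same strand.

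**Figure D1:**
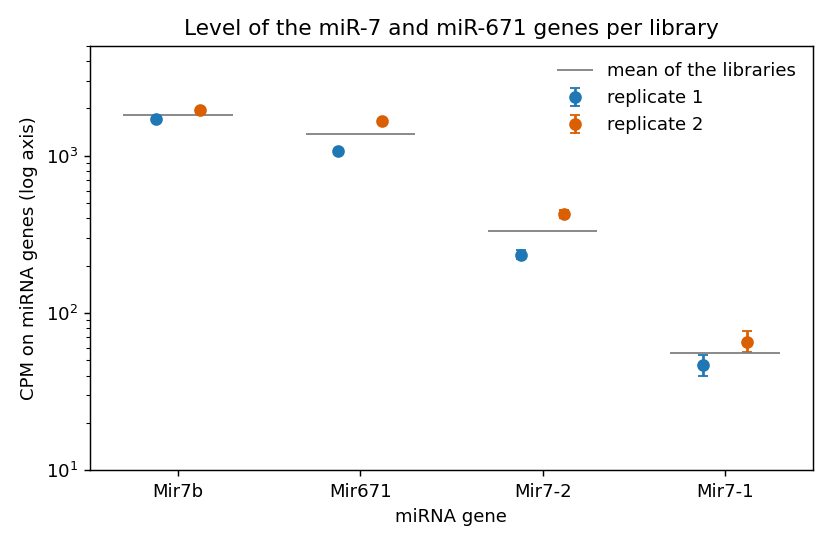
Level of each gene in CPM on a log axis, with 1 point per library, exact Poisson 95% intervals as bars and a grey line at the mean of the libraries. Mir7b and Mir671 sit between 1072 and 1948 CPM, Mir7-2 between 236 and 426 CPM and Mir7-1 between 46.4 and 65.8 CPM, with replicate 2 above replicate 1 for each gene.

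Among the miR-7 genes, Mir7b gave most of the assigned counts. Its share was 85.8% (95% Wilson interval 85.0 to 86.6) in replicate 1 and 79.9% (78.8 to 80.8) in replicate 2. Mir7-2 gave 11.9% (11.1 to 12.6) and 17.5% (16.5 to 18.4), and Mir7-1 gave 2.33% (2.02 to 2.70) and 2.69% (2.32 to 3.13). These are shares of the reads that mapped to 1 place. They are not shares of mature miR-7, since miR-7b-5p occurs in 1 miRNA gene and miR-7a-5p in 2.

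The shares of Mir7b and Mir7-2 differed between the libraries by more than the counting intervals, and those of Mir7-1 had overlapping intervals. In assigned counts, Mir7-2 exceeded Mir7-1 by 5.08 times in replicate 1 and 6.48 times in replicate 2. In sum the 3 miR-7 genes stood at 1987 and 2440 CPM (2213 ± 320, SD, n = 2). Mir671 had 0.629 counts for each count of Mir7b in replicate 1 and 0.855 in replicate 2.

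The libraries were then compared gene by gene, with the limit that such a test compares 2 libraries and not conditions. Of 507 genes with at least 10 counts in sum, 264 (52.1%) differed beyond counting error, 128 higher in replicate 1 and 136 (26.8%) higher in replicate 2. All 4 members were higher in replicate 2 by the two-sided exact binomial test with Benjamini-Hochberg adjustment over all 507 genes. Among the 302 genes with 100 or more counts, as each member has, 41.4% were higher in replicate 2, so a call in this direction was common at the members' depth.

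Mir7-2 differed most, by 1.81-fold (95% interval 1.65 to 1.98), a log2 ratio of 0.85 and adjusted p = 1.29e-38. Mir671 differed by 1.56-fold (1.49 to 1.62, log2 ratio 0.64, adjusted p = 8.14e-89) and Mir7-1 by 1.42-fold (1.14 to 1.76, log2 ratio 0.50, adjusted p = 0.00328). Mir7b differed least, by 1.14-fold (1.10 to 1.19, log2 ratio 0.19, adjusted p = 6.17e-12). All 4 p-values are from the exact binomial test. Over the 507 tested genes the median log2 ratio was -0.02 and the median absolute log2 ratio 0.47, so the ratio of Mir7b was smaller than that of the typical tested gene, that of Mir7-1 near it and those of Mir671 and Mir7-2 larger. Larger ratios in the same direction were found in 49 tested genes for Mir7-2, 80 for Mir671, 100 for Mir7-1 and 190 for Mir7b.

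None of the 4 differences passed a test that allows for the spread between the libraries as a whole. edgeR estimated a common dispersion over the 507 tested genes, a coefficient of variation of 0.378 beyond counting error. It came from the same 2 libraries taken as 1 group, so the difference under test was itself counted as spread. Such a test has little power for a gene with a typical ratio and cannot decide whether a member differs. With this dispersion the negative binomial test gave adjusted p = 1 for each of the 4 members. Unadjusted, this exact negative binomial test gave 0.302 for Mir7-2, 0.445 for Mir671, 0.567 for Mir7-1 and 0.840 for Mir7b. By that test 2 genes of the table differed, and 23 had an unadjusted p under 0.05.

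**Figure D2:**
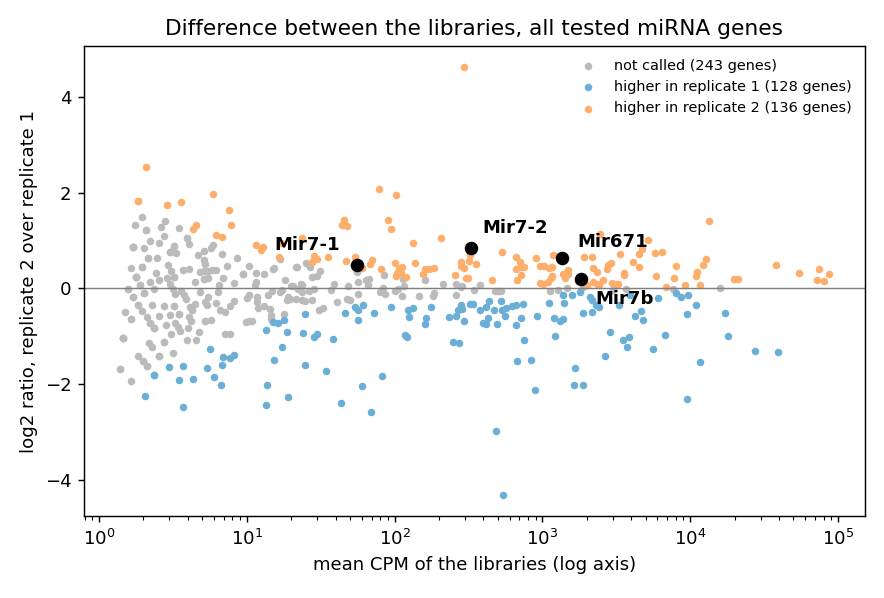
Each point is 1 of the 507 tested miRNA genes, with its mean CPM on a log axis and its log2 ratio of replicate 2 over replicate 1, coloured by the exact binomial call. The 4 members (black) lie above 0, at 0.19 to 0.85, within the cloud of genes of like level.

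Markers of cell types also had unequal summed levels in the libraries, and within most lists 1 gene carried much of the sum. The 3 oligodendrocyte genes summed to 4060 CPM in replicate 1 and 1247 CPM in replicate 2, with 2 higher in replicate 1 and 0 in replicate 2 by the exact binomial test. The choroid plexus and ciliated cell genes (4 of 5 detected) summed to 1979 and 930 CPM, with 3 called, all towards replicate 1. They were the lists of more than 1 gene whose calls all pointed one way.

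The neuron markers (8 of 12 detected) summed to 30634 and 21472 CPM, but 2 were higher in replicate 1 and 4 in replicate 2. Those not detected were Mir9-2 and the genes of miR-124, whose families have several copies, and reads that map to several places are not counted. Mir132 alone stood at 17266 and 5947 CPM, and the other 11 summed to 13368 and 15525 CPM, higher in replicate 2. The endothelial and mural genes (3 of 3 detected) summed to 14332 and 11076 CPM, with Mir126a (11308 and 7829 CPM) called higher in replicate 1 and Mir143 (2833 and 3069 CPM) in replicate 2. Sums of these lists therefore follow their most abundant gene.

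The microglia and myeloid genes (3 of 3 detected) summed to 1044 and 1096 CPM. Of this Mir150 made up 981 and 1047 CPM, called higher in replicate 2, while Mir223 (8.17 and 3.13 CPM) was called higher in replicate 1. The erythroid genes (3 of 3 detected) summed to 75.4 and 192 CPM. Here Mir451a (41.9 and 162 CPM) and Mir144 were called higher in replicate 2 and Mir486 (24.5 and 12.9 CPM) in replicate 1.

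Mir375, of islet and pituitary, stood at 379 and 302 CPM. Of the muscle genes 1 of 5 was detected, at 27.4 and 35.6 CPM, and Mir1a-1, Mir1a-2, Mir133a-1 and Mir133a-2 were at 0. The part of these differences in the ratios of the members was not tested. In bulk tissue, fewer cells of a type and less RNA per cell cannot be told apart.

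The genes nearest to each member in level over the 2 libraries were taken by the Euclidean distance of log2(CPM + 0.5). For Mir7b they were Mir125b-1 (1654 and 1848 CPM, distance 0.09), Mir138-2 (1870 and 1904 CPM) and Mir351 (1847 and 1746 CPM). For Mir671 they were Mir195a (999 and 1603 CPM, distance 0.12), Mir129-2 (1236 and 1514 CPM) and Mir335 (1293 and 1689 CPM). By assigned counts, Mir7b thus stood level with genes of the miR-125 and miR-138 families, and Mir671 with a gene of the miR-15 and miR-16 family. Of these neighbours, Mir125b-1 shares miR-125b-5p, Mir138-2 shares miR-138-5p and Mir129-2 shares miR-129-5p with another miRNA gene. Reads of a shared arm can map to several places, so these values are not levels of the mature miRNAs.

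For Mir7-2 the nearest were Mir350 (247 and 404 CPM, distance 0.10), Mir1843b (259 and 383 CPM) and Mir16-1 (296 and 421 CPM). For Mir7-1 they were Mir135a-2 (48.8 and 62.2 CPM, distance 0.11), Mir504 (44.0 and 62.2 CPM) and Mir5099 (42.2 and 66.5 CPM). Mir16-1 and Mir135a-2 also share 1 arm with another miRNA gene, as Mir7-2 and Mir7-1 do. With 2 libraries, such likeness covers level and 1 ratio only.

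A list of 26 miRNA genes known for expression in neurons gives the setting of these levels. Of the list 22 were detected. Its genes summed to 73613 CPM in replicate 1 and 54934 CPM in replicate 2, or 56347 and 48987 CPM without Mir132. Those not detected were Mir124a-1, Mir124a-2, Mir124a-3 and Mir9-2, which belong to families of several copies with the same mature name. Reads that map to several places are in none of these sums. The highest means were 17231 CPM for Mir149, 11607 CPM for Mir132, an activity-regulated miRNA, and 6020 CPM for Mir330, each above the mean of Mir7b. Of its 23 tested genes 8 were higher in replicate 1 and 9 in replicate 2, with a median log2 ratio of -0.06.

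Many miRNA genes share sequence, and Mir7-1 and Mir7-2 were compared with others in that state. Over all 2202 genes, 1087 (49.4%) have 20 nucleotides in a row in common with a miRNA gene elsewhere in the genome. In 61 genes, Mir7-1 and Mir7-2 included, some arms occur in another miRNA gene and some do not, and 40 of them (65.6%) were detected. Of 907 genes with no shared arm, Mir7b and Mir671 included, 335 (36.9%) were detected, and of 54 with every arm shared 7 were. For the remaining 1180 genes no arm was matched in RefSeq, and 44 of them were detected.

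Within 26 families of 2 or 3 copies with the same mature name, the miR-7a pair summed to 387 CPM and ranked 12. The Mir16 pair ranked 11 at 418 CPM and the Mir30c pair 13 at 242 CPM. The ratio of the higher to the lower copy was 5.78 and 6.14 for Mir16, near that of the miR-7a pair, and 1.82 and 1.87 for Mir30c. The highest single copies were Mir128-1 (5824 ± 2065 CPM), Mir138-1 (4260 ± 1173 CPM) and Mir181b-2 (2787 ± 655 CPM; SD, n = 2 for each).

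The 3 genes of miR-124, a neuronal miRNA, had 12 and 4, 5 and 1, and 0 and 4 counts. How many reads of each family lie in the multimapping row was not tested.

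**Figure D3:**
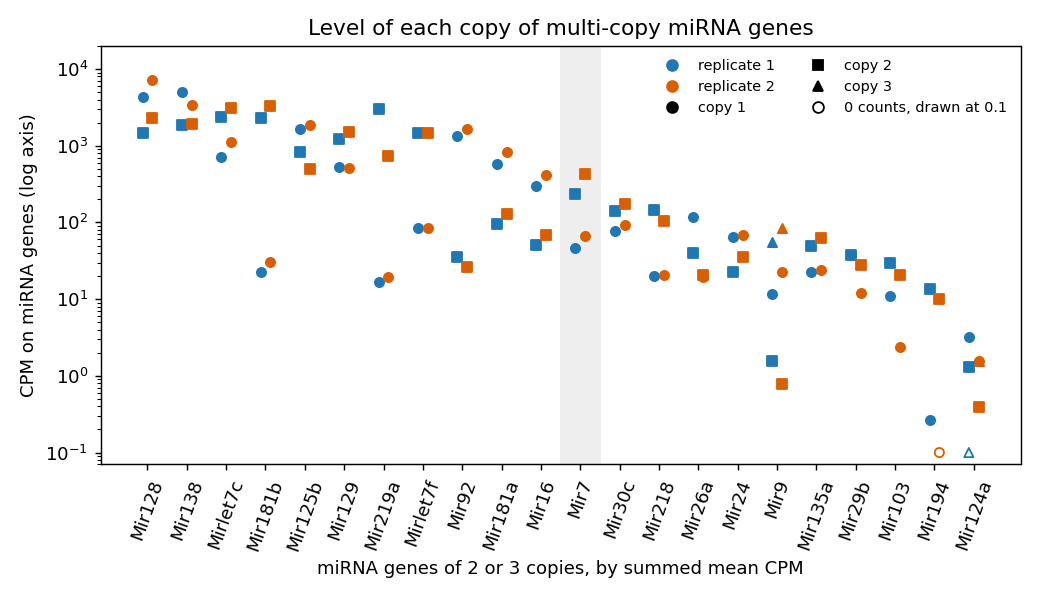
CPM on a log axis of each copy (symbol) in each library (colour) for the families with a summed mean above 1 CPM, ordered by that sum, with copies at 0 counts drawn as open symbols at 0.1. The miR-7a pair (grey band) ranks 12, with Mir7-2 above Mir7-1 in both libraries by 5.08 and 6.48 times.

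The RNAs that the members are known to act on were not measured here, so their sites are described from sequence alone. The exon of the Cdr1as circle, taken from the annotated transcript C230004F18Rik-206 (chrX:61183248-61186174, plus strand), is 2927 nucleotides long and holds the whole reverse complement of Cdr1. Cyrano, named 1700020I14Rik in GENCODE and Oip5os1 in RefSeq, was taken from its transcript 1700020I14Rik-202 (chr2:119594303-119607502, plus strand), 8300 nucleotides after splicing.

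The match to the miR-7 seed, GTCTTCC, occurred 123 times in the Cdr1as exon and 0 times on its reverse strand. From the first match at nucleotide 26 to the last at 2851, neighbouring matches were 17 to 109 nucleotides apart, with a median of 18. The base opposite position 1 of the miRNA was A in 34 matches, C in 71, T in 16 and G in 2. Of the first 2927 nucleotides of 25516 other transcripts, 23.9% hold the match, the median is 0 and the highest number is 4. In whole transcripts outside the Cdr1as locus, the most was 11, in the very long transcript of Ttn.

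Cyrano held 2 miR-7 seed matches, at nucleotides 762 and 2952. The match to the miR-671-5p seed, GGCTTCC, occurred 1 time in the Cdr1as exon, at nucleotide 2797, and 1 time in Cyrano, at 3199, and 29.3% of the other transcripts' windows hold it. The match to the miR-671-3p seed, GAACCGG, occurred 0 times in either RNA, against 8.51% of windows that hold it. The windows are as long as the Cdr1as exon and shorter than Cyrano, so their shares are not a like comparison for Cyrano. A match describes letters and does not show binding.

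**Figure D4:**
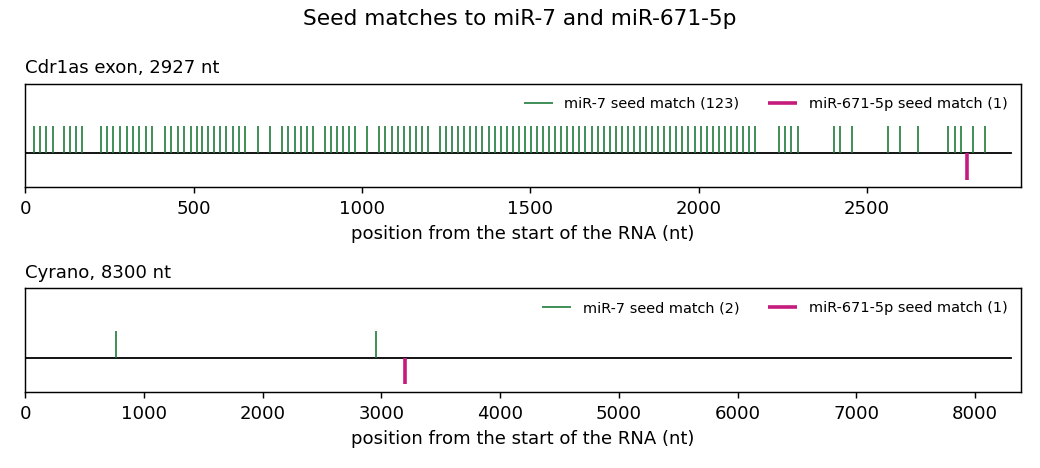
Positions of the seed matches of miR-7 (green, above the line) and miR-671-5p (magenta, below the line) along the Cdr1as exon and Cyrano, in nucleotides from the start of each RNA. The 123 miR-7 matches run along most of the Cdr1as exon, and Cyrano has 2, at 762 and 2952.

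Pairing beyond the seed set the sites apart. The following sites are printed as target RNA letters on the plus strand, under different rules for capitals. In the miR-671-5p site, capitals mark every base that pairs when the whole miRNA is aligned without gaps. In both miR-7 sites, capitals mark only the seed match, the A that follows it and the longest run upstream. Lower case in the miR-7 sites need not mean unpaired, so the capitals are not a like comparison between the miRNAs.
Cdr1as with miR-671-5p: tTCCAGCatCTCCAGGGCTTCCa
Cdr1as with miR-7: caacgtcttccACAAAATtcagGTCTTCCA
Cyrano with miR-7: taagaACAACAAAATCACcaatGTCTTCCA

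The miR-671-5p site of Cdr1as (chrX:61186029-61186051) pairs with 19 of the 23 bases of the miRNA without a gap. The unpaired miRNA positions are 1, 15, 16 and 23, counted from 1 at the 5′ end of the miRNA, and 2 of them face a base that could form a G:U pair. The best ungapped site for miR-7a-5p in the same exon paired 16 of 23 bases. In Cyrano the best also paired 16 of 23, with miRNA positions 1, 2, 3, 4, 6, 8 and 10 unpaired. That alignment leaves most of the seed unpaired, although the printed Cyrano site holds a full seed match. A count without gaps cannot hold both that seed match and the run upstream of it. The equal counts of 16 therefore do not show equal pairing. By the other measure, the longest run upstream of the seed match, the miR-671-5p site of Cdr1as had 6 nucleotides. How the sites compare therefore depends on the measure.

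In the 22 nucleotides upstream of each miR-7 seed match, the longest run complementary to the rest of the miRNA was 2 to 7 nucleotides in the Cdr1as exon, with a median of 5. The printed site (chrX:61183658-61183687) is one of those with 7, and of the 123 matches 0 had a run of 8 or more. In Cyrano, the match at 2952 (chr2:119602132-119602161) had a run of 13 and the match at 762 a run of 3. These runs and the capitals of both printed miR-7 sites are for miR-7a-5p. For miR-7b-5p the runs in the Cdr1as exon were also 2 to 7 nucleotides with a median of 5, and the run at 2952 in Cyrano was 14, 1 nucleotide longer.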

How the data were processed

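MicroRNA sequencing of 2 libraries of 1 group was analysed. Per the accompanying text, the deposited tables hold raw counts of reads per miRNA gene on mm10 with GENCODE M21. Which aligner and counting tool made them is not given in the sources used here. Each table has 3 count columns (either strand, strand of the gene, opposite strand), and reads on the strand of the gene were analysed. A further 4 rows hold reads given to no gene: 41.3% unmapped, 26.3% multimapping and 4.85% outside miRNA genes of 13791106 reads in replicate 1, and 20.7%, 37.5% and 6.51% of 7239133 reads in replicate 2. They stayed out of totals and tests.

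All 2202 identifiers matched GENCODE M21. CPM took the counts on miRNA genes as their total, and a pseudocount of 0.5 CPM was added before taking log2. The libraries were compared by a two-sided exact binomial test given their totals. Genes entered it with 10 or more counts over both libraries. P-values were adjusted by Benjamini and Hochberg's method over all tested genes, and 0.05 was the threshold. The script was tested on simulated counts with counting error only, which lack the further spread between these libraries. edgeR's quasi-likelihood test needs replicates within each side and could not be run on 1 library against 1. As an alternative, edgeR's common dispersion, estimated from both libraries as 1 group, was used in a negative binomial test. Tools were edgeR 4.0.16 (TMM) and DESeq2 1.42.0 (size factors) in R 4.3.3, and scipy 1.17.1, pandas 2.3.3, numpy 2.4.6 and matplotlib 3.10.9 in Python 3.11.15.

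Mature sequences are RefSeq's on GRCm38.p6, and hairpins and transcripts GENCODE's. The whole genome was not searched, so copies outside annotated miRNA genes and transcripts are not covered. The reference holds C57BL/6J sequence, and reads of the CAST/EiJ allele were not analysed separately. Named genes were the 4 members, the 3 genes nearest to each in level and the 3 highest of each list (neuron-enriched, genes of 2 or 3 copies), beside the cell type markers. A further list is not reported here. Genes named beyond this rule, such as the other copies, and the gene left out of a list's sum were chosen after their values were seen. The members and lists were chosen with earlier results of these data known.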

Additional observations from a re-analysis of the deposited data

How the results depend on the processing

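Under the alternatives 70 recomputed values were labelled as unchanged, 5 moved, 4 lost their call and 0 reversed. The 70 include the single-library values of each member, such as 236 and 426 CPM for Mir7-2 against a mean of 331 CPM. With 2 libraries each value always lies within 1 SD of their mean, so these are no test of the mean. They also include log2 ratios with another pseudocount, which could not change a call because the test uses counts. The order by hairpin length, also among them, could not change because the lengths are close. The tally of 70 therefore overstates how far the results were tested. With all reads as the denominator, the mean levels were 578 per 1000000 reads for Mir7b, 442 for Mir671, 108 for Mir7-2 and 17.98 for Mir7-1. Their order could not change, since each library is scaled by 1 factor and both libraries already had that order. The negative binomial test with edgeR's common dispersion gave adjusted p = 1 for Mir7b, Mir671, Mir7-2 and Mir7-1. It called 2 genes, against 264 by the exact binomial test and 235 to 268 under the other settings. By construction it allows for spread beyond counting error, and its dispersion came from the same libraries that it compares. All 4 members were detected at a minimum of 1, 2 or 10 CPM, and Mir7-1 and Mir7-2 shared a stretch at 18, 20 and 22 nucleotides. The column that ignores strand, TMM totals, DESeq2 size factors and minimums of 1 and 100 counts changed no call of a member. In the column that ignores strand the members have the same counts, so only the totals and the other genes differ. No paired analysis was possible because there was 1 group. With 1 library left there is no spread and no contrast, so leaving out a replicate gives only the values of the other, printed for each gene. Depth limits Mir7-1 most, at 176 and 168 counts.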
